A study of Mus musculus with 2 samples.

Results

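First-intron Tcf1 peaks are the ChIP-seq peaks whose summit lay in the first intron of a protein-coding gene, more than 1 kb from every annotated transcription start site and outside all exons. The first intron was that of the gene's longest protein-coding transcript in GENCODE vM1 on the mm9 mouse genome. On chromosomes 1 to 19, 2468 of 21764 deposited peaks met this rule, out of 22286 peaks in the whole list. The rule used position only, so height, fold enrichment and sequence played no part in choosing the members.

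Tcf1 binding was profiled by ChIP-seq in naïve CD8+ T cells sorted from spleen, with a rabbit antiserum raised against full-length recombinant Tcf1. There was 1 library from wild type (WT) cells, with 36938606 fragments after duplicate removal, and 1 control library from Tcf1-deficient cells, with 27625250. The sorted cells of both groups were GFP+ TCRbeta+ CD62Lhi CD44lo-med CD8+. According to the series description, both kinds of mice carried hCD2-Cre and a Rosa26-lsl-GFP reporter, and differed in whether the genes for Tcf1 and Lef1 were wild-type or floxed. The sample title calls the control Tcf1-deficient and its genotype field reads Tcf1-/-Lef1-/-, whereas the study's methods describe deletion of Tcf7 alone with Cd4-Cre, so whether the control cells also lacked Lef1 cannot be told apart from these sources. Age and sex were not in the labels, and the cell type cannot be checked from a peak list.

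Tcf1, encoded by Tcf7, and its relative Lef1 are transcription factors that bind DNA through an HMG box and recognise a short core rich in A and T with a CAAAG stretch. They act throughout T cell development, in naïve T cells and in memory CD8+ T cells, both as activators and as repressors. First introns often hold enhancers and silencers, and the silencer that keeps Cd4 off in CD8+ T cells lies in the first intron of Cd4.

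The sequences below show what the summits of first-intron peaks held. Each is the 101 bases centred on a summit, on the plus strand of mm9, in lower case with matches to the Tcf/Lef, Runx and ETS cores in capitals. Other cores searched were not marked. They were chosen after the values were seen, for peaks of high fold enrichment or in T cell genes. The first 6 hold the Tcf/Lef core ATCAAAG, which reads CTTTGAT on the other strand. In Znrf3, Lamc1 and Ccr9 a Runx core, TGTGGTT or AACCACA on the other strand, lay in the same stretch.
Znrf3, chr11:5311749-5311849: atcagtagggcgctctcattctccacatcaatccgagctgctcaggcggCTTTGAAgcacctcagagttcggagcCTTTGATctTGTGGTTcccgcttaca
Lamc1, chr1:155167390-155167490: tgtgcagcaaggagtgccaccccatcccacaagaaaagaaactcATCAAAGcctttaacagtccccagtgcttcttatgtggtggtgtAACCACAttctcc
Ccr9, chr9:123670101-123670201: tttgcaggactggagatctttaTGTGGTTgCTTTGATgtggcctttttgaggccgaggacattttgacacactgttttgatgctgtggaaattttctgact
Tpm4, chr8:74660728-74660828: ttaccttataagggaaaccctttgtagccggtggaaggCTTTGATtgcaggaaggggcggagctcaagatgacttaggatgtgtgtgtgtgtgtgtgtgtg
Tnks, chr8:36008253-36008353: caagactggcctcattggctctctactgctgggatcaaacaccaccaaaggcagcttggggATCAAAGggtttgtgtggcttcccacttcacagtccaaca
Lck, chr4:129242586-129242686: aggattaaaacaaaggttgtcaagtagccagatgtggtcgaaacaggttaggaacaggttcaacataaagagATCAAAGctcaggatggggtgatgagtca
Distances are from the summit to the centre of a core. In Znrf3 a second Tcf/Lef form (TTCAAAG, here CTTTGAA) lay 2 bp, the Tcf/Lef core 28 bp and the Runx core 37 bp from the summit. In Ccr9 the Runx core and the Tcf/Lef core were separated by a single base. The core lay 3 bp from the summit in Lamc1, 9 bp in Tpm4, 14 bp in Tnks and 25 bp in Lck.

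The next 4 summits had no ATCAAAG within this stretch. Dennd5a held the TTCAAAG form 1 bp from its summit and Ptpre a Runx core 21 bp away. Inpp5d held the ETS core CGGAAGT (here ACTTCCG) and AGGAAGT on both strands. Cd4 held none of these letters.
Dennd5a, chr7:117094926-117095026: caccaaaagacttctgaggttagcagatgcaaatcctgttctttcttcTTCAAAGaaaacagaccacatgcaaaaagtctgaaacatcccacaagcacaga
Ptpre, chr7:142734085-142734185: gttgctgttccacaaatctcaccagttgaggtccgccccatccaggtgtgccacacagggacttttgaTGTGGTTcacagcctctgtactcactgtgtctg
Inpp5d, chr1:89523081-89523181: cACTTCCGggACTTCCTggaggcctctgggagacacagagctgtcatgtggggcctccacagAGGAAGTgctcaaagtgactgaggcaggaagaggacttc
Cd4, chr6:124836123-124836223: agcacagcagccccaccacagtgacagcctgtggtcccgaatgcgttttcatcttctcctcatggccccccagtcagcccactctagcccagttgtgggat
A match describes letters in a window and does not show that a factor was bound there.

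First introns carried more peaks per length of sequence than later introns. After the same exclusions of exons and start sites, first introns made up 8.88% of the sequence of chromosomes 1 to 19 and held 11.3% of the peaks, at 11.6 peaks per Mb (95% interval 11.2 to 12.1). Later introns made up 24.8% of the sequence and held 3734 peaks (17.2%), at 6.29 per Mb (6.09 to 6.49). The ratio of these densities was 1.85 (exact conditional interval 1.75 to 1.94). Promoters, the 1 kb on each side of a start site, were far denser at 85.7 per Mb, and intergenic sequence was sparser at 4.44 per Mb. All intervals cover counting error only. Peaks of 1 list are not replicates, and no test between the genotypes was possible with 1 library each.

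The ratio depended on the distance to the nearest start site. At 1 to 2 kb, first introns held 403 peaks at 23.0 per Mb (20.8 to 25.4) and later introns 268 at 10.4 per Mb (9.23 to 11.8), a ratio of 2.2 (1.88 to 2.58). From 2 to 5 kb, where 565 first-intron peaks lay, the ratio was 1.82 (1.62 to 2.05). It was 1.54 (1.37 to 1.73) from 5 to 10 kb and 1.62 (1.45 to 1.82) from 10 to 20 kb. At 20 to 50 kb it was 1.39 (1.23 to 1.57). Beyond 50 kb, 119 first-intron peaks gave 3.42 per Mb (2.84 to 4.10) against 3.05 (2.79 to 3.32) in later introns, a ratio of 1.12 whose interval of 0.913 to 1.37 included equality. Weighted to the distances of first-intron sequence, the density of later introns was 7.08 per Mb, and the ratio was then 1.64. The ratio was above 1 on each of the 19 chromosomes, lowest on chromosome 16 (1.23) and highest on chromosome 2 (2.56), and its median was 1.89.

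**Figure D1:**
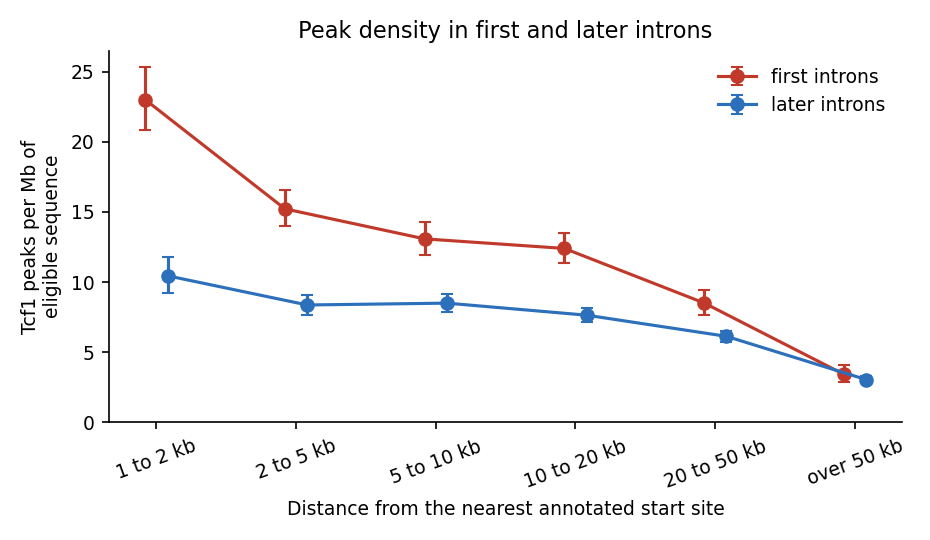
Peaks per Mb of eligible sequence in first and later introns, by distance of the sequence to the nearest annotated start site in kb, with 95% Poisson intervals of the counts. First introns sat at 23.0 per Mb at 1 to 2 kb against 10.4 in later introns, and the intervals overlapped beyond 50 kb, at 3.42 and 3.05.

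The higher density of first introns was seen mainly in genes that also had a promoter peak, a split chosen after the data were seen. Among 7777 genes with a promoter peak, summed over genes with introns of up to 1 Mb, first introns held 26.0 peaks per Mb (24.8 to 27.2) and later introns 11 (10.6 to 11.5), a ratio of 2.36 (2.22 to 2.51). Among 10844 genes without one, the densities were 4.10 (3.77 to 4.45) and 3.57 (3.38 to 3.77) per Mb, a ratio of 1.15 (1.04 to 1.27). Seen by gene, 982 of the 1382 genes with a first-intron peak had a promoter peak, or 71.1% (Wilson interval 68.6 to 73.4). Of genes with eligible first-intron sequence but no such peak, 39.6% (38.7 to 40.4) had one. Of the 1636 eligible genes with a later-intron peak, 59.4% (57.0 to 61.8) did. These overlap the genes with a first-intron peak, of which 33.1% also had a later-intron peak. The gap between genes with and without a first-intron peak held at a matched length of intron. It was 72.9% against 40.2% at 20 to 50 kb and 62.0% against 7.85% above 100 kb.

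First-intron peaks were spread over many genes. Of 13356 genes with eligible first-intron sequence, 1382 (10.3%, 9.84 to 10.9) held at least 1, and of these 906 held exactly 1, 476 at least 2 and 92 at least 5. Genes with such a peak had long first introns, with a median of 22291 bp (interquartile range 10257 to 43275) against 5049 bp (2274 to 13011) for those without. The share of genes with a peak rose with intron length, from 0.752% under 2 kb and 3.21% at 2 to 5 kb to 27.0% at 20 to 50 kb, and was 25.4% above 100 kb. Per Mb of these introns the numbers were closer, between 12.8 and 16.8 in the classes under 100 kb and 5.05 above. Within the intron the summits had a median position of 50.6% of its length (24.5 to 74.7), with 9.24% in the first 10% and 9.0% in the last 10% of it. Positions were taken over the full intron, including sequence near start sites that the rule leaves out. They therefore do not show an even spread per eligible base.

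Most members lay within reach of some start site. Of the 2468 summits, 16.3% were within 2 kb of the nearest annotated start, 59.4% within 10 kb and 95.2% within 50 kb. The median distance to the start of the transcript that owned the intron was longer, 13220 bp (4638 to 32368), and 1654 members (67.0%) were nearer to another annotated start. At the 1-kb limit of the rule, the 65 members within 100 bp beyond it had a median fold enrichment of 5.92, and the 67 first-intron peaks within 100 bp short of it had 6.39. An ETS core was near 2 summits in each of these sets.

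First-intron peaks also lay close to each other. Another peak of any class was within 10 kb of 1761 members (71.4%, 69.5 to 73.1), against 54.4% (52.8 to 56.0) of later-intron, 45.2% of promoter and 53.3% of all peaks. Another first-intron peak was that near for 49.1% of members and a promoter peak for 36.1% (34.2 to 38.0), whereas for later-intron peaks another later-intron peak was that near for 42.7% and a promoter peak for 16.1%. When only peaks with a fold enrichment of WT over control of at least 8 were counted, as members and as neighbours, 43.1% of the 951 members left had a peak of any class within 10 kb. Close to start sites the gap to later introns was 84.4% against 66.8%, at 1 to 2 kb. At 10 to 20 kb the shares were 56.1% (51.7 to 60.3) and 53.0% (49.6 to 56.4), whose intervals overlapped, and at 20 to 50 kb they were 66.2% and 45.8%.

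The strength of first-intron peaks was like that of later-intron peaks. Fold enrichment is the pileup of WT fragments at the summit plus 1, over the local control level plus 1, with a control floor of 5.42 fragments. Control levels are scaled to the depth of the WT library and are not fragment counts of the control library. Its median was 6.40 in first introns (interquartile range 4.67 to 10.8, interval of the median 6.23 to 6.64), 6.46 in later introns (4.67 to 11.1, 6.23 to 6.70), 6.08 at promoters (4.52 to 8.59) and 6.23 over all peaks. Members ranged from 1.26 to 111, with a median pileup of 41 fragments (30 to 70) and a median width of 424 bp (298 to 598), against 414 bp in later introns and 504 bp at promoters. A fold enrichment of at least 4 with p under 1e-05 and q under 0.05 was met by 2151 members, 87.2% (85.8 to 88.4), near the 86.2% of all peaks on these chromosomes.

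Strong peaks were more frequent in introns than at promoters. A fold enrichment of 20 or more was reached by 217 first-intron peaks, 8.79% (7.74 to 9.97), against 6.94% of all peaks, 9.83% (8.91 to 10.8) of later-intron peaks and 3.65% of promoter peaks. A value of 40 or more was reached by 39 (1.58%, 1.16 to 2.15), against 1.08% of all peaks and 1.77% of later-intron peaks. The control stood at its floor for 2106 members (85.3%). In 10 members it was above 50 fragments, and most of these had low folds despite tall pileups, such as a peak in Mdga2 with 511 WT fragments over a control level of 320 (fold 1.59) and one in Smo with 370 over 294 (fold 1.26).

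**Figure D2:**
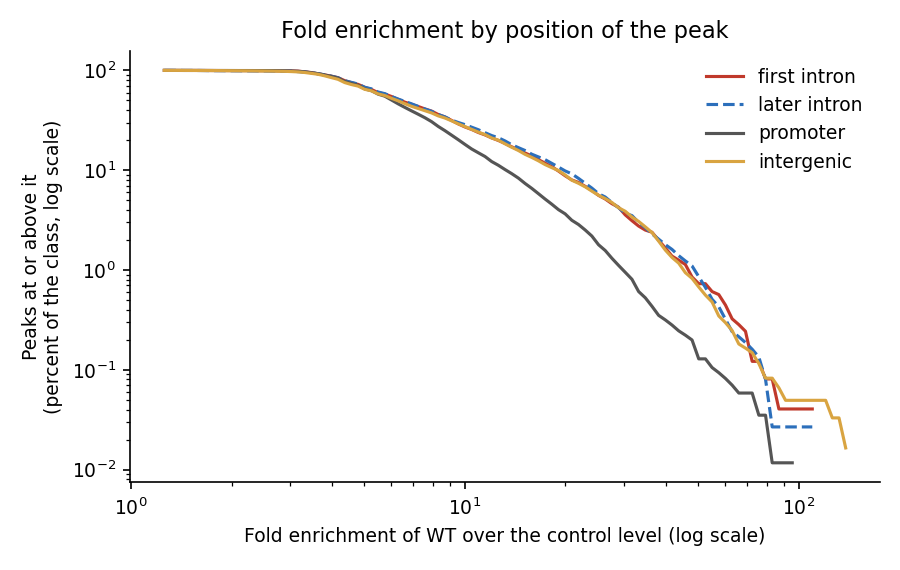
Percent of peaks (log scale) at or above each fold enrichment (log scale) for first-intron, later-intron, promoter and intergenic peaks, 1 curve per class. At a fold enrichment of 20 the curves stand at 8.79%, 9.83%, 3.65% and 8.94%.

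The Tcf/Lef core ATCAAAG, searched on both strands within 100 bp of the summit, was present in 314 first-intron peaks, 12.7% (11.5 to 14.1). Windows of the same length placed 2 kb to each side of the summits held it in 2.82%, and 3.67% of 1048633 windows tiled over the eligible first-intron sequence did. The same letters read backwards, as a control of equal composition, were near 3.20% of summits. Of later-intron peaks 14.0% held the core and of promoter peaks 4.74%, so first introns were close to later introns and above promoters. The form with T first, TTCAAAG, was about as frequent, in 316 members (12.8%, 11.5 to 14.2) against 4.78% of flanks.

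Of the cores of other T cell factors searched, the Runx core and AGGAAGT, a form of the ETS core, were the most frequent at these summits. The Runx core TGTGGTT, bound by the Runx family that silences Cd4, was near 499 summits (20.2%, 18.7 to 21.8) against 5.29% of flanks and 5.01% of tiled windows. The ETS core CGGAAGT, which contains a CpG, was near only 47 (1.9%, 1.44 to 2.52), against 0.648% of flanks, whereas 12.6% of promoter peaks had it. Its letters read backwards, TGAAGGC, were near more first-intron summits than the core itself, 3.97%. They lack the CpG, so they are no matched control for this core. Tiled windows held CGGAAGT in 0.402%. The letters of the Runx core read backwards were near 3.85% of first-intron summits. With A as its first letter the ETS core, AGGAAGT, was near 518 members (21.0%, 19.4 to 22.6) and 9.32% of promoter peaks. Flanks held that form in 5.47% and tiled windows in 4.87%. The AP-1 core TGAGTCA was in 6.2% against 3.63% of flanks, the E-box CAGCTG in 14.0% against 9.72%, and the GATA core AGATAA in 9.72% against 9.81%, so of the cores searched the GATA letters alone showed no excess over flanks. None of the Tcf/Lef, Runx and CpG-containing ETS cores was found in 1668 members (67.6%). Base composition differed between classes, with a median of 48.8% G and C at first-intron summits, 46.0% in their flanks, 48.3% at later-intron summits and 62.2% at promoter summits, and its part in the shares was not tested.

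**Figure D3:**
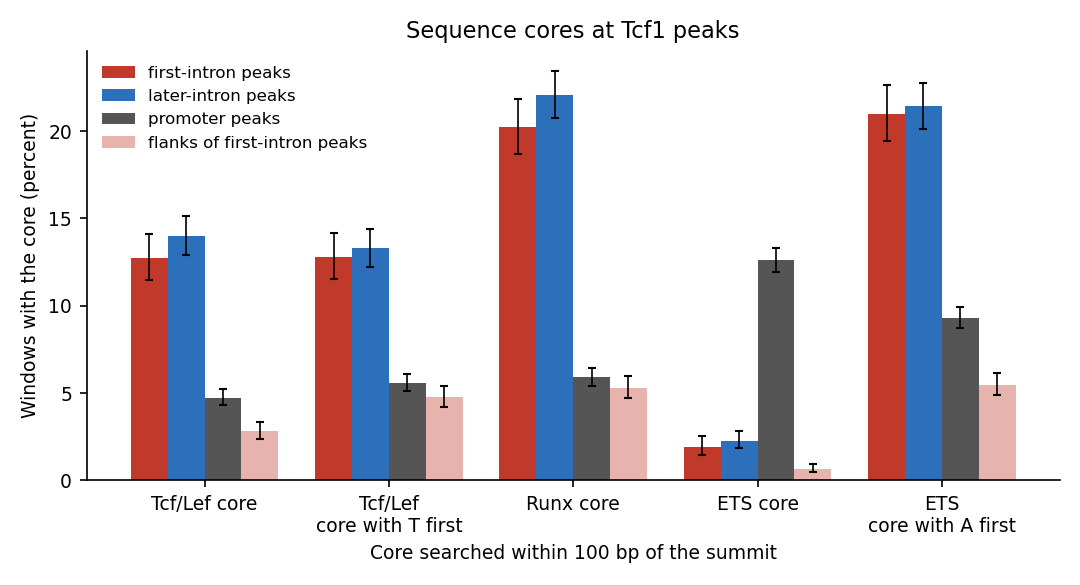
Percent of summit windows (100 bp each side) with each core in first-intron, later-intron and promoter peaks and in the flanks of first-intron peaks, with 95% Wilson intervals. The Tcf/Lef core stood at 12.7% in first introns against 4.74% at promoters, and the ETS core CGGAAGT at 1.9% against 12.6%.

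A ranking of 8185 words of 7 letters, both strands taken as one, by their excess within 50 bp of first-intron summits was made on the same summits and is no independent support for the cores above. CAGGAAG ranked first, in 15.7% of summits against 4.05% of flanks, followed by AACCACA, the Runx core, with 13.2% against 2.65%. ACAGGAA came next (13.2% against 2.84%), then ACTTCCT, which is AGGAAGT on the other strand (12.9% against 2.74%), and ATCAAAG at rank 5 (10.4% against 1.38%). CTTTGAA, the TTCAAAG form, was at rank 8, and CGGAAGT at rank 409.

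Where present, the Tcf/Lef core lay near the summit, at a median of 17 bp (8 to 39), and within 25 bp in 189 of 314 members (60.2%). The bases beside it differed from those of other copies. The base before the core was C in 40.7% and G in 35.9% of copies near summits, against 26.8% and 21.4% of all first-intron copies. The base after it was G in 34.7% (29.7 to 39.9) against 25.4%. Most copies had no peak, since 329 of 40818 in eligible first-intron sequence (0.806%, 0.724 to 0.898) lay within 100 bp of a summit. The share was 0.489% (0.451 to 0.531) in later introns and 2.65% in promoters. Such shares depend on the peak density of each class. For the GATA letters, without an excess over flanks in first introns, they were 0.182%, 0.0957% and 0.69% in the same order.

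The share with a Tcf/Lef core was higher among stronger peaks. It was 8.83% (28 of 317) under a fold enrichment of 4, 11.8% (94 of 800) from 4 to 6 and 11% (75 of 682) from 6 to 10. It was 15.3% (69 of 452) from 10 to 20, 21.3% (38 of 178, 16.0 to 27.9) from 20 to 40 and 25.6% (10 of 39, 14.6 to 41.1) at 40 and above. Promoter peaks went from 2.82% in the lowest range to 29.6% (8 of 27, 15.9 to 48.5) in the highest. Later-intron peaks stood at 33.3% (22 of 66, 23.2 to 45.3) in the highest range. These wide intervals overlapped that of first introns and cannot show whether the classes differed there. From 10 to 20, promoter peaks stood at 9.46% (117 of 1237). The Runx share was 17.7% in the lowest and 30.8% in the highest range of first-intron peaks. Members with the Tcf/Lef core had a median fold enrichment of 8.10 (4.83 to 15.1) against 6.39 without, and those with a Runx core 7.32 against 6.23.

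**Figure D4:**
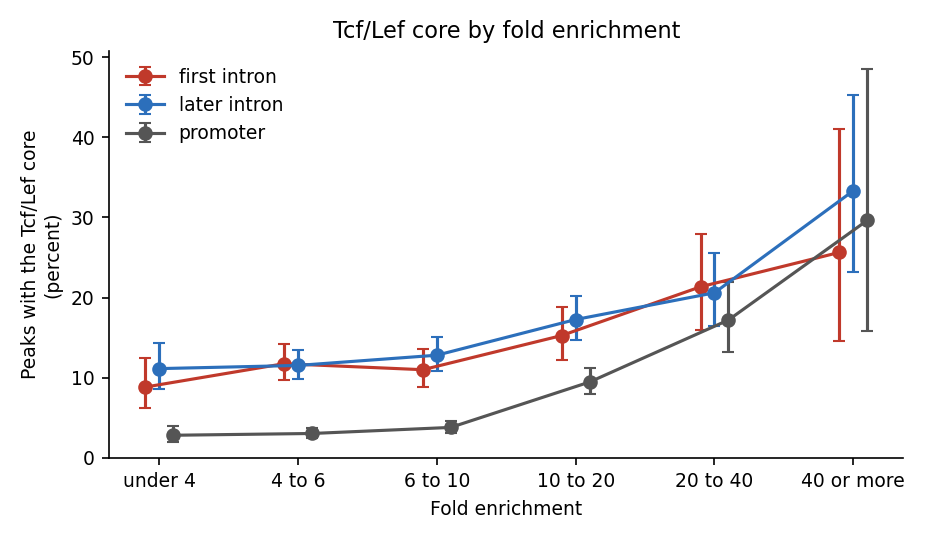
Percent of peaks with ATCAAAG within 100 bp of the summit by range of fold enrichment, for first-intron, later-intron and promoter peaks, with 95% Wilson intervals. In first introns the share was 8.83% in the lowest range and 25.6% in the highest, where the interval spans 14.6% to 41.1%.

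Both the Tcf/Lef and the Runx core were near 49 members (1.99%, 1.51 to 2.62), an interval that includes the 2.57% given by the product of their shares. Both were near 2.28% of later-intron peaks and 1.36% of all peaks. A Runx core was near 15.6% (12.01 to 20.03) of members with the Tcf/Lef core and 20.9% (19.2 to 22.7) of those without, with overlapping intervals.

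The first-intron peaks of highest fold enrichment stood in genes of many kinds. The first of them was in Znrf3, a membrane ubiquitin ligase that removes Wnt receptors, at chr11:5311365-5312209, 33.1 kb from the start of its transcript, in a first intron of 106 kb. It had a pileup of 712 WT fragments (Poisson interval 661 to 766) over a control at the floor, a fold of 111. The peak in Dennd5a, an exchange factor for Rab GTPases, had 553 fragments (508 to 601) and a fold of 86.3. The one in Tpm4, a tropomyosin of the actin cytoskeleton, had 599 fragments over a control of 6.69 and a fold of 78.1, only 1.62 kb from the start. Tnks, a tankyrase that marks Axin for degradation in the Wnt pathway, had a fold of 69.5.

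Besides Znrf3, 4 of the 15 highest peaks held the Tcf/Lef core within 100 bp, in Tpm4, Tnks, Gypc, a membrane glycoprotein (fold 71.5), and Lamc1, a laminin chain (61.2). A Runx core without it was near the summits in Nsmce1, a subunit of the SMC5/6 complex (70.7), Ptpre, a tyrosine phosphatase (67.0), Scml4 (60.3), Atp6v0a4, a subunit of the proton pump (59.99), and Tnfrsf1b, a TNF receptor (56.1). Itprip had the tallest pileup of the 15, 721 fragments, but a control of 10.03 and so a fold of 65.5. Ergic1 had 60.5, Smad3, which carries TGF-beta signals to the nucleus, 59.5, and Enthd1, with an ETS core, 58.9.

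Several first introns held runs of peaks. The highest number, 64, was in Gm20388, a gene model on chromosome 8 with an intron of over 4 Mb that spans other genes. Of the 65 members in introns over 1 Mb, 36 were in no other first intron. Filip1l and 2610528E23Rik, overlapping models, shared the same 13 peaks. Prkcq, the protein kinase C theta of T cell receptor signalling, had 12 in 54.4 kb, with folds of 3.43 to 31.8, and none held ATCAAAG, a Runx core or CGGAAGT. The strongest of them held the TTCAAAG form, as did the peak in Prkcq with a fold of 21.2. Pitpnc1, a lipid transfer protein, also had 12. Smad3 and Fli1, an ETS factor, had 11 each, with median folds of 11.5 and 10.9. Gramd3, Hivep2 and Pip4k2a had 11 each as well. In all, 229 genes held 3 or more, and these accounted for 44.9% of pairs of member and gene.

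Genes on 4 lists, of T cells and of the Wnt pathway, held first-intron peaks more frequently than genes at large. The lists were chosen with earlier results of these data known, so their shares are no independent support. Among surface receptors of T cells, 21 of 31 genes with eligible first-intron sequence held one (67.7%, 50.1 to 81.4), beside 10.3% of all eligible genes. TCR and PI3K signalling genes stood at 19 of 33 (57.6%, 40.8 to 72.8), T cell transcription factors at 22 of 43 (51.2%, 36.8 to 65.4) and Wnt pathway genes at 4 of 15 (26.7%, 10.9 to 52.0). Of B cell and myeloid genes, 0 of 17 held one (Wilson interval up to 18.4%), and a count of 0, taken as a limit of 3 counts, allows a share of up to 17.6%. Both limits lie above the 10.3% of all eligible genes. The count covers eligible first-intron sequence only. The study reports accessible sites bound by Tcf1 in introns of Pax5 and Syk, which are on this list. First introns were longer on the lists, with medians of 8.93, 19.9, 12.6 and 17.0 kb in the order given and 6.41 kb for B cell and myeloid genes, against 5.90 kb for all. Promoter peaks were also more frequent on them, in 23 of 31 surface receptor, 30 of 33 signalling, 37 of 43 transcription factor and 12 of 15 Wnt pathway genes, against 2 of 17 B cell and myeloid genes and 5719 of all 13356, and the part of promoter peaks and intron length in the shares was not tested. Per Mb of eligible sequence the 4 lists held 111, 52.7, 50.8 and 36.5 members against 11.8 over all genes. The median folds of their members were 7.32, 8.18, 7.63 and 6.86, against 6.39 over all.

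Among the listed surface receptors, the strongest peak was in Cd4, the coreceptor of helper T cells that CD8+ T cells keep silent, at chr6:124835104-124836569. Its pileup was 218 fragments (190 to 249) over a control at the floor, a fold of 34.1, and its summit was 2.07 kb from the start of the transcript, in an intron of 8.39 kb. It was the single deposited peak of the gene's introns, with no promoter peak. Il2ra, the alpha chain of the IL-2 receptor, had 6 peaks, the strongest at a fold of 30.4 and the others between 3.58 and 6.08. Itgae, the CD103 integrin chain, had 1 at 26.3 with a Runx core, Cxcr4, a chemokine receptor, 1 at 25.5 and Cd28, a costimulatory receptor, 2 with a highest fold of 19.2. Ccr9, a homing receptor for the gut, held 5 between 7.63 and 18.2, and the strongest is shown above. That peak lay 82.6 kb from the start of its transcript, in a first intron of 95.8 kb. The nearest annotated start was 1.47 kb from it.

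Of the listed T cell transcription factors, Fli1 had the highest fold, 49.7 (318 fragments). Stat5b, which acts downstream of IL-2 and IL-7, had 7 peaks from 4.54 to 39.6, and 3 of them held the Tcf/Lef core. Bcl11b, which fixes T cell identity, had 3 with a highest fold of 31.5, and Ikzf3, an Ikaros family member, 1 at 29.3. Bach2, a repressor of effector genes, had 6 from 3.12 to 29.1. Lef1 and Tcf7 themselves held no member. The first intron of Lef1 is 2.18 kb, of which only 0.167 kb lay beyond 1 kb from a start site, and Lef1 had a promoter peak and 14 later-intron peaks. The first intron of Tcf7 had no eligible sequence.

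Of the listed signalling genes, Ptpn22, a phosphatase that restrains T cell receptor signals, had the highest fold at 40.1 (307 fragments). Ubash3b, another negative regulator of these signals, followed at 34.9, the strongest of its 8 peaks, with a Tcf/Lef core. Prkcq reached 31.8, and Inpp5d, the lipid phosphatase SHIP1, 23.1 with 1 peak. Lck, the kinase bound to CD4 and CD8, had 2, the stronger at 20.3. In the Wnt pathway, the 6 peaks of Znrf3 went from 5.14 to 111, and the kinase Nlk (9.66), the coreceptor Lrp5 (8.88) and the kinase Gsk3b (5.14) were weaker.

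**Figure D5:**
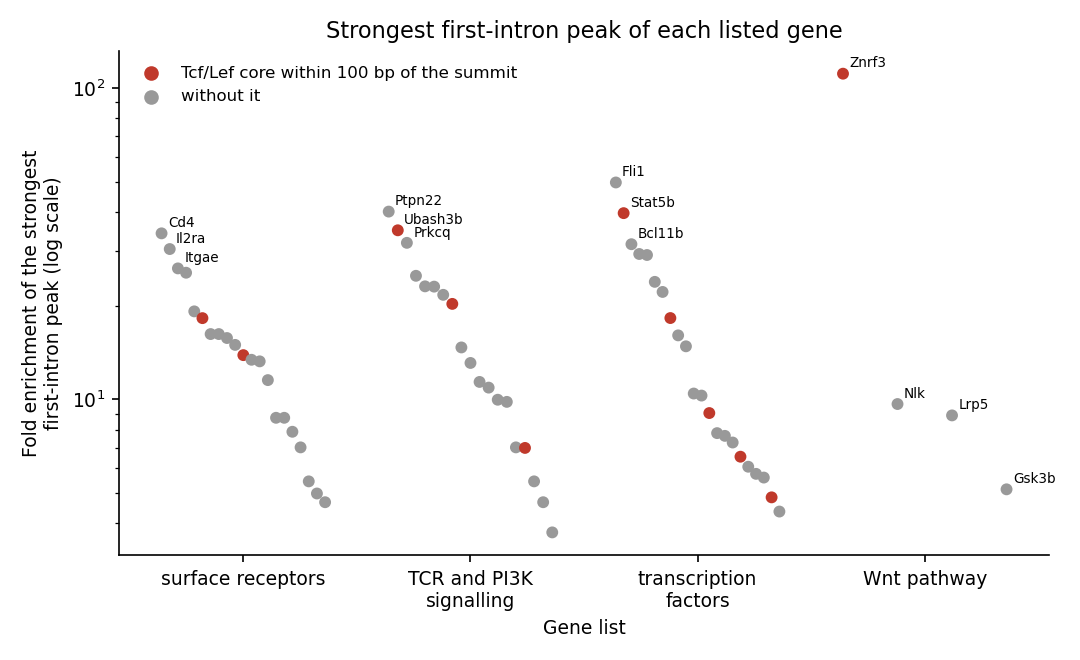
Fold enrichment (log scale) of the strongest first-intron peak in each gene of 4 gene lists that had one, ordered within each list, red where ATCAAAG lay within 100 bp of the summit. Znrf3 stood at 111, and the highest of the other lists were Fli1 at 49.7, Ptpn22 at 40.1 and Cd4 at 34.1.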

How the data were processed

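Tcf1 ChIP-seq of 1 WT and 1 Tcf1-deficient library was analysed from 1 deposited peak list. Per the submitters' processing notes and file headers, the authors checked reads with FastQC, aligned them to mm9 with Bowtie2 2.2.5 and called peaks with MACS2 2.1.1.20160309 in WT over Tcf1-deficient cells (46428124 and 36118114 fragments, 36938606 and 27625250 kept). The deposited pileup is a signal, the coverage of WT fragments at the summit. The deposited fold enrichment is a ratio over the local control level, which was computed back from it. The deposited −log10 p, and the deposited −log10 q (used here only as a score against the q limit), came from 1 call over both libraries by the authors, and the p compares these libraries, not the genotypes.

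Peaks on chromosomes 1 to 19 were placed by summit with GENCODE vM1 on NCBIM37 (mm9): promoter (within 1 kb of a start), exon, first intron, later intron, other gene body, intergenic. Density was counted per Mb of sequence meeting the same rule. Cores were searched on both strands within 100 bp of summits, in windows 2 kb to each side, and in 201-bp windows tiled over eligible introns. Intervals at 95% are Wilson, Poisson, exact conditional binomial or order-statistic. No replicates existed and no test was run. Scripts used Python 3.11.15, pandas 2.3.3, numpy 2.4.6, scipy 1.17.1 and pysam 0.24.0, and were tested on simulated data.

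Named genes were the 15 members of highest fold, the 10 genes with most members, the 5 highest folds per gene list, and Cd4 and Lef1. A gene that this rule named is not reported here. Lck and Ccr9, shown for their sequences, Tcf7, and the members with a high control were named after their values were seen. Members and gene lists were chosen with earlier results of these data known. The cores AGGAAGT and TTCAAAG, the split by promoter peak and the leaving out of introns over 1 Mb were chosen after seeing the data.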

Additional observations from a re-analysis of the deposited data

How the results depend on the processing

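Of 72 alternative values for 9 results, 52 stayed within the limits set (an interval of the main value, or 1.5 times a count) and 20 moved. With only peaks past the fold minimum of 4 and the p and q limits, the median fold was 7.17, the median width 459 bp and the share with a neighbour within 10 kb 68.6%. With a minimum of 8, 951 members were left, with a median fold of 12.8, a width of 623 bp, 16.6% with the Tcf/Lef, 24.1% with the Runx and 2.52% with the ETS core, and 43.1% with a neighbour. Within 50 bp of summits the cores stood at 10.4%, 13.2% and 1.26%, and within 150 bp the first 2 stood at 14.3% and 23.5%. A neighbour was within 5 kb of 54.1% and within 50 kb of 94.7%. The core AGGAAGT in place of CGGAAGT gave 21.0%. Beyond 2.5 kb from start sites the density ratio was 1.72 and the neighbour share 68.2%. Leaving out introns over 1 Mb moved none of the 9 results.

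No paired analysis was possible because each group had 1 library, and with 1 library each none was left out. Shares below about 1% of members rest on few peaks, and the control floor of 5.42, on the scale of the WT library, caps the fold of peaks whose scaled local control was lower.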
